A study of Mus musculus with 8 samples.

Results

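The skeletal muscle genes described here are 40 genes of the contractile apparatus, calcium handling, energy supply and transcription of skeletal muscle fibres, read in RNA of femoral growth plate cartilage from 12-day-old littermate mice. They were chosen by name, and counted as measured where the scanner software called a probe of a RefSeq transcript well above background on 4 or more of the 8 arrays. All 40 genes had probes (60 in all), and 35 genes with 46 probes were measured, among 23105 features in the whole series. Of the measured genes, 17 were well above background on all 8 arrays and 18 were not so on at least 1 array, mostly Cre arrays 1, 2 and 4.

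The samples were 4 mice labelled Cre and 4 labelled CreTW, with 1 array per mouse. As background on the study, which the labels do not spell out, both genotypes carry a Cre recombinase driven by the promoter of the type II collagen gene, which is active in cartilage. The CreTW animals carry in addition a mutant form of the mitochondrial DNA helicase Twinkle that Cre switches on. By its title, the series asks how inactivating the respiratory chain in cartilage bears on growth. The share of the 56605 probes called above background ran from 45.4% to 57.9% over the arrays, and 0 spots were saturated. Chondrocyte markers were bright on all 8 arrays, with all 16 listed genes measured. Col2a1 lay at 9.68 to 10.18 on the Cre arrays and 9.66 to 10.03 on the CreTW arrays. Levels are given as log2 of the processed signal minus log2 of the array's 75th percentile, so that 0 is the signal at that percentile. They compare arrays for 1 gene and not genes with each other. Differences are CreTW minus Cre on this log2 scale, with the SE from limma (n = 4 in each genotype). Benjamini-Hochberg adjusted p-values cover all 23105 features. The labels name separate mice, and the number of arrays limits the precision.

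Skeletal muscle fibres contract when myosin heads pull on actin filaments within the sarcomere, and calcium released from the sarcoplasmic reticulum starts the pull by binding troponin. Fast and slow fibres use different genes for the same parts, such as heavy chains, light chains and troponin subunits. Fibres of embryos and newborns use further heavy chains, which adult chains replace after birth. Muscle lies next to the femur. Fibre genes are not part of the known programme of growth plate chondrocytes, although some genes on such lists are also active outside muscle. Where the RNA of these genes came from in each sample was not tested.

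Most skeletal muscle genes had far higher levels on CreTW arrays 2, 3 and 4 than on the Cre arrays, while CreTW array 1 lay within the range of Cre. For 32 of 35 measured genes, CreTW arrays 2, 3 and 4 all lay above all 4 Cre arrays, as did 5.44% of all features. CreTW array 1 was the lowest CreTW array for 34 of 35 genes (16.7% of features) and lay within the Cre range for 30 of 35 (57.5% of features). Among the Cre arrays, array 3 was the highest for 28 of 35 genes, against 16.2% of features. This split of the arrays was named after the values were seen. The filter favours such counts, since 18 of the genes were kept partly through the arrays where they were high. The median shift from the Cre mean was also taken over the 17 genes well above background on all 8 arrays. It was -0.12, -0.60, 0.99 and -0.26 on Cre arrays 1 to 4. On CreTW arrays 1 to 4 it was 0.46, 4.01, 3.27 and 2.4. The heat map by array shows dark red columns for CreTW arrays 2, 3 and 4 and a lighter red one for Cre array 3.

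**Figure D1:**
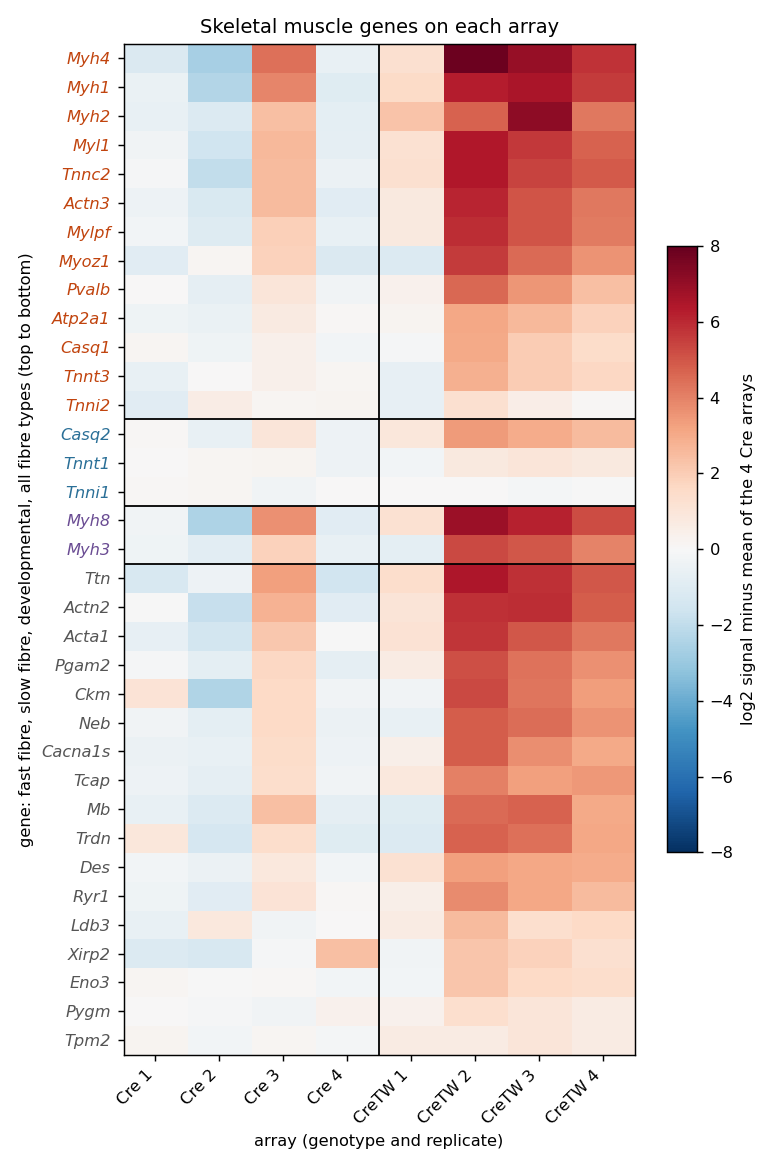
Each row is 1 of the 35 measured skeletal muscle genes and each column 1 array, and the colour is the log2 signal minus the mean of the gene's 4 Cre arrays. CreTW arrays 2, 3 and 4 lie above all Cre arrays for 32 of the 35 genes. CreTW array 1 lies within the Cre range for 30, and Cre array 3 is the highest Cre array for 28. Of the genes, 18 were kept partly through the arrays where they were high.

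No skeletal muscle gene passed the test between genotypes. Of the 35 genes, 0 were called higher at adjusted p 0.05 by limma, beside 0.229% of all features, and 28 had an unadjusted p under 0.05 with a higher value, beside 5.93%. Differences over 1 were seen for 30 genes (0.705% of features) and differences above 0 for 34 (48.4%). The lowest adjusted p-values were those of Des (0.0822) and Tpm2 (0.0874). The median log2 difference was 2.90, and that of all features was -0.0075. Since 18 of the genes were kept partly through the arrays where they were high, the count was also taken over all 40 genes with no filter on dim probes. There 0 were called (0.0351% of features were called higher), 30 had an unadjusted p under 0.05 with a higher value (2.83% of features), 32 differed by over 1 (1.15% of features) and the median was 2.79. Among the 17 genes well above background on all 8 arrays, fitted with the 19391 such features alone, 0 were called (0.299% of features), 15 had an unadjusted p under 0.05 with a higher value (6.39%) and the median was 2.71. Without CreTW replicate 1, 8 of 35 genes were called higher, beside 0.238% of features. They were Casq2, Des, Eno3, Myh3, Mylpf, Neb, Pgam2 and Tcap, and the median was 4.05. Without any 1 of the other 7 arrays, 0 were called (22 to 29 at an unadjusted p under 0.05). Des and Tpm2 were called with a trended, robust prior in limma (0.364% of features), and Des with normexp background correction (0.346%), where the median difference was 1.43. In bulk RNA, more cells of a type and more RNA per cell cannot be told apart.

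**Figure D2:**
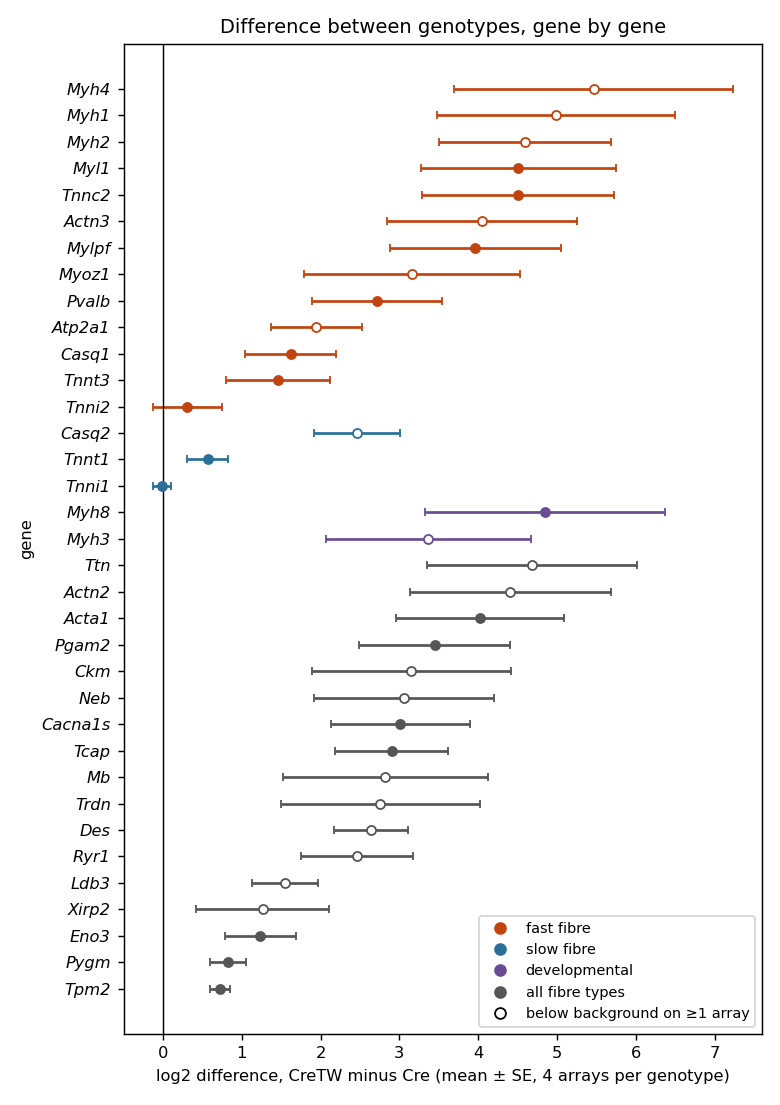
The points are the log2 differences between CreTW and Cre for the 35 measured genes with their SE, coloured by fibre class, and open points mark genes below background on at least 1 array. The differences run from -0.015 for Tnni1 to 5.47 for Myh4, and 34 of 35 lie above 0.

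The DNA before the start of each gene was searched for the binding sites of muscle transcription factors, to show what the genes share there. Promoters were at hand for 32 of the 40 genes (37 starts), from RefSeq on build GRCm38.p6, and the 250 bases before the start were searched on both strands. The E-box CAGCTG, a site of the MyoD family, was in 18 of the 37 (48.6%) and in 13.0% of all 32851 promoters of that length. The MEF2 core TATTTTTA was in 5 of the 37 (13.5%) and in 2.45% of all. The CArG box, the site of serum response factor, was in 4 of the 37 (10.8%) and in 1.47% of all. The sequence TATAAA was in 7 of the 37 (18.9%) and in 12.4% of all. Ldb3, Mb, Pvalb and Tnni1 have 2 or 3 starts each, so the 37 are not independent, and a match is a description of the letters, not a bound site. Genes with large differences did not all hold these motifs: Myh4, Myl1, Acta1 and Mylpf did, while Myh1, Myh8, Ttn, Myh2, Tnnc2 and Actn2, whose differences were larger than that of Mylpf, had none of the E-box, MEF2 core and CArG box. Shown are the promoters of Acta1, Myh4 and Mylpf, with motifs, that of Tnnc2, with none, and the first of Tnni1, the gene nearest 0, with E-boxes, MEF2 cores and CArG boxes in capitals. They lie at chr8:123894776-123895025 (minus strand), chr11:67237562-67237811 (plus strand), chr7:127211358-127211607 (plus strand), chr2:164779735-164779984 (minus strand) and chr1:135799171-135799420 (plus strand), and each is written 5′ to 3′ on the gene's own strand.
Acta1: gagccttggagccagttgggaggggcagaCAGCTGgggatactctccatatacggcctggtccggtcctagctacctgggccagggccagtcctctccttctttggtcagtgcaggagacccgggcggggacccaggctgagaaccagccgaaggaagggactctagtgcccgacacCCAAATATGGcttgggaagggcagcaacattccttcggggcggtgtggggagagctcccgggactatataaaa
Myh4: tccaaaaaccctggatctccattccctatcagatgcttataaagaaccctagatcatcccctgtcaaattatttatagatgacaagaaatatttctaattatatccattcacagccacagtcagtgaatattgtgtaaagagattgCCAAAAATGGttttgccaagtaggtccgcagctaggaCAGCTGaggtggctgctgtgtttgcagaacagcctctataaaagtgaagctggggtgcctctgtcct
Mylpf: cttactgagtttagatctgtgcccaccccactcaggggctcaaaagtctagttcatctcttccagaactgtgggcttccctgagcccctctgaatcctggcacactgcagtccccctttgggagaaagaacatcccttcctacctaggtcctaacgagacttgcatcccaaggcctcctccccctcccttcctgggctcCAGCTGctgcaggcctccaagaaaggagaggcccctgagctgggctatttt
Tnnc2: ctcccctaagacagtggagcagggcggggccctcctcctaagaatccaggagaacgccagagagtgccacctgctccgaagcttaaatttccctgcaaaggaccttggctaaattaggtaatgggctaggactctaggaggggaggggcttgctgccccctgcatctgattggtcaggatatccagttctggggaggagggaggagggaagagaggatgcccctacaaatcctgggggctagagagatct
Tnni1: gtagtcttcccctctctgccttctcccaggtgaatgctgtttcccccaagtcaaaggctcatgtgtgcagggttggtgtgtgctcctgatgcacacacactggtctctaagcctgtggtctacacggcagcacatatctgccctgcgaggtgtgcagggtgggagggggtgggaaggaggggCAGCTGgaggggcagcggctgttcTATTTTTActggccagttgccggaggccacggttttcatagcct
Acta1 and Myh4 hold 1 E-box and 1 CArG box each, Mylpf 1 E-box, Tnnc2 none of them, and Tnni1 1 E-box and 1 MEF2 core.

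Genes of fast fibres differed widely between arrays. All 13 were measured, 0 passed the test (11 had an unadjusted p under 0.05), 13 of 13 differences lay above 0 and the median was 3.96. Myh4, the heavy chain of the fastest fibres, lay at -2.45, -3.95, 3.06 and -1.92 on Cre arrays 1 to 4 and at -0.025, 6.54, 5.64 and 4.45 on CreTW arrays 1 to 4. Cre array 3 was thus above CreTW array 1, and the groups overlapped (difference 5.47 ± 1.77, adjusted p = 0.329). Myh1 and Myh2, the other fast heavy chains, had differences of 4.99 ± 1.51 and 4.60 ± 1.09, and both were well above background on Cre array 3 alone among the Cre arrays and on all 4 CreTW arrays. These sizes rest on Cre signals at background: with such arrays raised to the lowest signal called above background, they were 4.35 and 2.89. Heavy chain genes are close copies of one another, so a probe may read more than 1 of them.

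The light chains and the calcium sensor of fast fibres were measured on all 8 arrays. Tnnc2, the fast troponin C that binds calcium, lay at 0.23, -1.62, 2.88 and -0.097 on Cre arrays 1 to 4 and at 1.66, 6.73, 5.76 and 5.23 on CreTW arrays 1 to 4. The difference was 4.50 ± 1.22 (adjusted p = 0.254), and only Cre array 3 and CreTW array 1 crossed between the groups. Myl1, an essential light chain, had a difference of 4.51 ± 1.24 and Mylpf, the fast regulatory light chain, one of 3.96 ± 1.08 (adjusted p = 0.258 and 0.257). Actn3, the fast fibre actinin of the Z-disc, had one of 4.04 ± 1.21 and Myoz1, a Z-disc protein that binds calcineurin, one of 3.16 ± 1.37, and both were well above background on Cre array 3 and CreTW arrays 2, 3 and 4 (raised in the same way, 2.50 and 2.33).

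The other fast troponins did not share the size of these differences. Tnni2, the fast troponin I that blocks contraction at rest, lay at 4.48, 5.99, 5.56 and 5.60 on Cre arrays 1 to 4 and at 4.76, 6.66, 5.94 and 5.50 on CreTW arrays 1 to 4. The groups overlapped throughout, and the difference was 0.31 ± 0.44 (95% interval -0.69 to 1.30, adjusted p = 0.823). Tnnt3, the fast troponin T, lay at 1.82, 2.48, 2.85 and 2.60 on the Cre arrays and at 1.80, 5.29, 4.44 and 4.07 on the CreTW arrays. CreTW array 1 was there just below all 4 Cre arrays and the other 3 CreTW arrays were above them (difference 1.46 ± 0.66, adjusted p = 0.476). At another Tnnt3 probe, CreTW array 1 (0.38) lay just above Cre array 1 (0.35).

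Genes that return or buffer calcium in fast fibres had middle values. Pvalb, which encodes the calcium buffer parvalbumin, lay at 0.65, -0.12, 1.60 and 0.30 on Cre arrays 1 to 4 and at 0.95, 5.20, 4.12 and 3.01 on CreTW arrays 1 to 4 (difference 2.71 ± 0.82, adjusted p = 0.293). Atp2a1, the fast calcium pump of the sarcoplasmic reticulum, had a difference of 1.95 ± 0.57, and Casq1, the calcium-storing calsequestrin of fast fibres, one of 1.62 ± 0.58. For all 3 genes CreTW array 2 was the highest of the 8 arrays.

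Of 5 slow fibre genes, 3 were measured, 0 passed the test (1 had an unadjusted p under 0.05) and the median difference was 0.57, with 0.19 within slide row 1 and 0.95 within row 2. Tnni1, the slow troponin I, did not follow the other muscle genes. It lay at 0.15, 0.20, -0.25 and 0.035 on Cre arrays 1 to 4 and at 0.085, 0.096, -0.10 and 0.00024 on CreTW arrays 1 to 4, so all 8 arrays lay close together. The difference was -0.015 ± 0.11 (95% interval -0.28 to 0.25, adjusted p = 0.975). Tnnt1, the slow troponin T, lay at -0.52, -0.42, -0.33 and -0.99 on the Cre arrays and at -0.76, 0.19, 0.40 and 0.19 on the CreTW arrays, with CreTW arrays 2, 3 and 4 above all Cre arrays (difference 0.57 ± 0.26, adjusted p = 0.481). Casq2, the calsequestrin of slow fibres and heart, had the largest difference of the 3, 2.46 ± 0.55 (adjusted p = 0.181). It lay at -2.81, -3.48, -1.91 and -3.28 on the Cre arrays, with array 3 alone well above background, and at -1.94, 0.55, 0.09 and -0.33 on the CreTW arrays. Tnnc1, the troponin C of slow fibres and heart, was well above background on CreTW array 4 alone, and Myoz2, a slow fibre Z-disc protein, on Cre array 2 and CreTW arrays 3 and 4. Neither was kept for the test.

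Of 4 developmental genes, the heavy chains Myh3 and Myh8 were measured and the transcription factors Myog and Myod1 were not. Myh8, the perinatal heavy chain, lay at 0.04, -2.10, 4.0 and -0.57 on Cre arrays 1 to 4 and at 1.55, 7.18, 6.49 and 5.54 on CreTW arrays 1 to 4. Its 3 highest arrays were CreTW arrays 2, 3 and 4, followed by Cre array 3 and then CreTW array 1 (difference 4.85 ± 1.52, adjusted p = 0.313). Myh3, the embryonic heavy chain, had a difference of 3.36 ± 1.30 (adjusted p = 0.416; 2.36 with dim arrays raised) and was well above background on Cre array 3 and CreTW arrays 2, 3 and 4. Myog, the factor that drives fibre differentiation, was well above background on CreTW arrays 2, 3 and 4 and on no Cre array. It lay at -5.39, -1.64, -1.97 and -2.47 on CreTW arrays 1 to 4 and at -4.95, -5.49, -4.71 and -5.33 on Cre arrays 1 to 4. As a bound, its CreTW mean was at least 1.4-fold higher. For such genes the CreTW mean was set against the Cre mean after raising each Cre array to its lowest signal called above background where the gene lay under it, and the bound was not tested. Myod1, the factor of myoblast commitment, was well above background on 0 of 8 arrays.

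**Figure D3:**
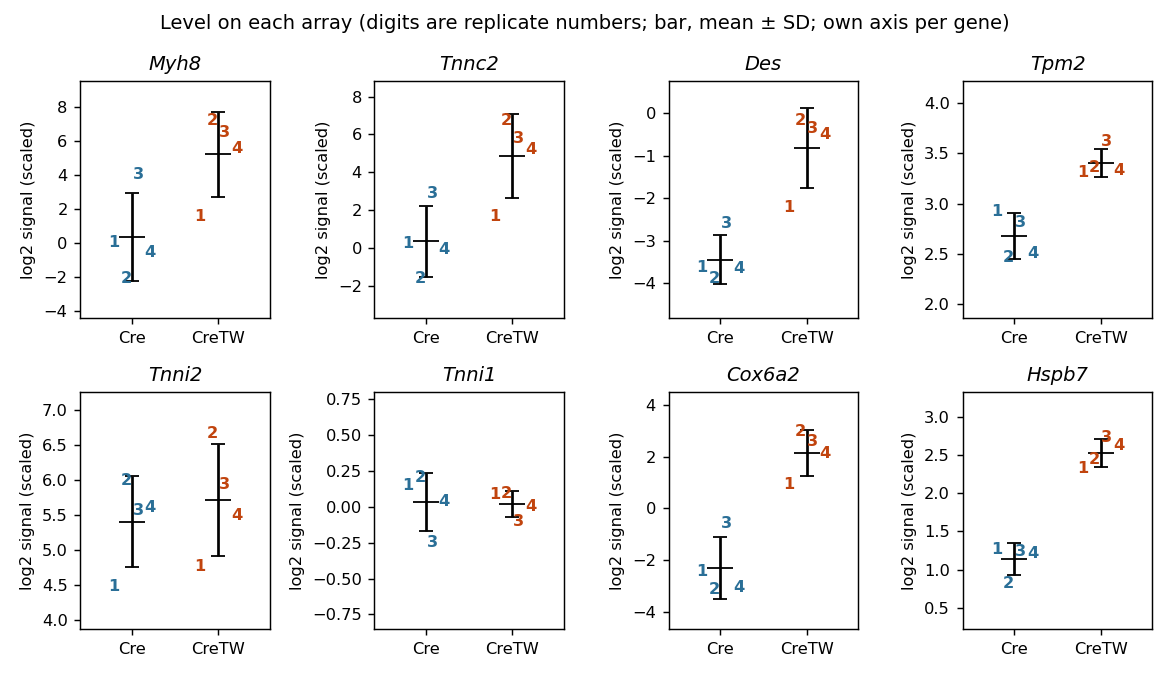
Each panel gives 1 gene's log2 signal relative to the array's 75th percentile on the 4 Cre and 4 CreTW arrays, drawn as replicate numbers, with the mean and SD as bars and its own axis. Myh8 and Tnnc2 spread over both groups in the same order, and Tnni1 lies between -0.25 and 0.20 throughout. At the probes shown, all CreTW arrays lie above all Cre arrays for Des, Tpm2, Cox6a2 and Hspb7.

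The largest group, 18 genes used by all fibre types, had 17 measured and 0 past the test (14 at an unadjusted p under 0.05), with a median difference of 2.82 and 17 of 17 differences above 0. Acta1, the actin of skeletal muscle thin filaments, lay at -1.45, -2.25, 1.35 and -0.80 on Cre arrays 1 to 4 and at 0.37, 4.96, 4.17 and 3.43 on CreTW arrays 1 to 4 (difference 4.02 ± 1.06, adjusted p = 0.241). Cre array 3 was again above CreTW array 1, so the groups overlapped. Ttn, the giant spring protein titin, had a difference of 4.68 ± 1.33 and Neb, the thin filament ruler nebulin, one of 3.06 ± 1.14, and both were well above background on Cre array 3 alone among the Cre arrays. With dim arrays raised, they were 3.40 and 1.91. Actn2, the actinin of all Z-discs, had one of 4.41 ± 1.28 (3.59 raised). Tcap, which anchors titin at the Z-disc, was measured on all 8 arrays, at -1.95, -2.28, -0.13 and -1.80 on Cre and -0.67, 2.47, 1.73 and 1.91 on CreTW arrays 1 to 4 (difference 2.90 ± 0.71, adjusted p = 0.214).

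At the probes used, Des, Tpm2 and Pygm had all 4 CreTW arrays above the 4 Cre arrays (3 of 35, beside 3.89% of all features). Des, which encodes the intermediate filament desmin of all muscle types, lay at -3.64, -3.89, -2.60 and -3.67 on Cre arrays 1 to 4, with array 3 alone well above background, and at -2.21, -0.17, -0.36 and -0.49 on CreTW arrays 1 to 4. Its difference was 2.64 ± 0.47 (95% interval 1.57 to 3.71, adjusted p = 0.0822), and CreTW array 1 stood well below the other 3. Tpm2, beta-tropomyosin, which is also used in other cells, lay at 2.92, 2.46, 2.82 and 2.51 on the Cre arrays and at 3.31, 3.36, 3.61 and 3.33 on the CreTW arrays. There CreTW array 1 was level with arrays 2 and 4, and the difference was 0.73 ± 0.13 (95% interval 0.43 to 1.02, adjusted p = 0.0874). A dimmer Tpm2 probe, well above background on all 8 arrays, gave 0.97 ± 0.35, and its groups overlapped. It lay at -2.49, -2.48, -2.10 and -2.90 on the Cre arrays. On CreTW arrays 1 to 4 it lay at -2.48, -0.97, -0.88 and -1.74. Pygm, the muscle glycogen phosphorylase, lay at 0.95, 0.81, 0.59 and 1.23 on the Cre and 1.25, 2.27, 1.83 and 1.53 on the CreTW arrays, with CreTW array 1 only just above Cre array 4 (difference 0.82 ± 0.23, adjusted p = 0.256).

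Genes of the Z-disc and of the link between excitation and calcium release mostly followed the same order of arrays. Cacna1s, the voltage sensor of the T-tubule, lay at -2.73, -2.86, -0.79 and -2.65 on Cre arrays 1 to 4 and at -1.80, 2.57, 1.44 and 0.80 on CreTW arrays 1 to 4 (difference 3.01 ± 0.88, adjusted p = 0.275). Ryr1, the calcium release channel it opens, had a difference of 2.46 ± 0.71 (2.17 with dim arrays raised). Trdn, triadin, which ties the channel to calsequestrin, had one of 2.76 ± 1.26 (2.09 raised). Ldb3, a Z-disc PDZ protein, had one of 1.55 ± 0.42, and there Cre array 2 rather than array 3 was the highest Cre array. Xirp2, an actin-binding repeat protein, was the exception on 1 array. Cre array 4 was its highest of all 8, at -1.46 against -5.13 to -3.96 on the other Cre arrays and -4.14 to -1.67 on the CreTW arrays (difference 1.26 ± 0.85, adjusted p = 0.624; 0.49 with dim arrays raised).

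Energy genes of muscle ranged from Pygm at 0.82 to Pgam2, the muscle phosphoglycerate mutase, at 3.45 ± 0.96. Pgam2 lay at -1.11, -1.82, 0.61 and -1.77 on Cre arrays 1 to 4 and at -0.39, 4.15, 3.31 and 2.64 on CreTW arrays 1 to 4, in the common order. Eno3, the muscle enolase, lay at 2.20, 2.04, 2.13 and 1.81 on the Cre and 1.79, 4.25, 3.64 and 3.43 on the CreTW arrays. The Cre arrays were close together there, CreTW array 1 was below all of them and the difference was 1.24 ± 0.45 (adjusted p = 0.382). Ckm, the cytosolic creatine kinase that regenerates ATP, had a difference of 3.15 ± 1.26, and Mb, myoglobin, which stores oxygen in slow and oxidative fibres, one of 2.82 ± 1.30. With dim arrays raised, they were 2.53 and 1.75. Ckmt2, the creatine kinase of muscle mitochondria, was well above background on CreTW arrays 2, 3 and 4 and on no Cre array. It lay at -5.55, -0.79, -0.21 and -2.08 on CreTW arrays 1 to 4 and at -5.07, -5.63, -5.33 and -5.42 on Cre arrays 1 to 4, and as a bound it was at least 2.29-fold higher.

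The genes varied together across arrays, within as well as between genotypes. For 26 of 35 genes the CreTW arrays fell in the same order, array 2 above 3 above 4 above 1, an order chosen after the values were seen and shown by 2.81% of all features. CreTW array 2 was the highest of all 8 arrays for 27 genes and array 3 for 6 (12.6% of features each). Cre array 2 was the lowest of all 8 for 26 genes. It was also the lowest of the Cre arrays for 26 genes, beside 19% of features. For the 18 genes with arrays at background, the lowest array is not reliably told. CreTW array 2 exceeded array 4 for 35 of 35 genes, by a median of 1.30 and a range of 0.0024 (Tnnt1) to 2.19 (Pvalb). Myh2 departed most from the order, with CreTW array 3 above array 2 by 2.41. Within Cre, array 3 exceeded array 2 for 31 of 35 genes, by a median of 2.14 and by up to 7.01 for Myh4. Myh4 was at background on Cre array 2. Over the 17 genes well above background on all 8 arrays, the median step was 1.72 and the largest 6.10. The median step between the same arrays over all features was -0.028 for CreTW array 2 against 4 and -0.058 for Cre array 3 against 2. No correlation across the arrays is given for these genes, and the arrays were not clustered. Of the 40 genes, those well above background numbered 19, 20, 34 and 22 on Cre arrays 1 to 4 and 27, 37, 38 and 39 on CreTW arrays 1 to 4.

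By class, the median shift from the Cre mean was lower for slow genes than for the other classes on CreTW arrays 2, 3 and 4. On CreTW arrays 1 to 4 it was 0.81, 5.59, 5.03 and 4.14 over 13 fast genes, 0.20, 6.07, 5.55 and 4.60 over 2 developmental genes, 0.46, 4.50, 3.70 and 3.06 over 17 genes of all fibre types and 0.051, 0.76, 0.97 and 0.75 over 3 slow genes. The difference between classes was not tested, and the slow class held 3 genes, 1 of them, Tnni1, at nearly the same level on every array.

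**Figure D4:**
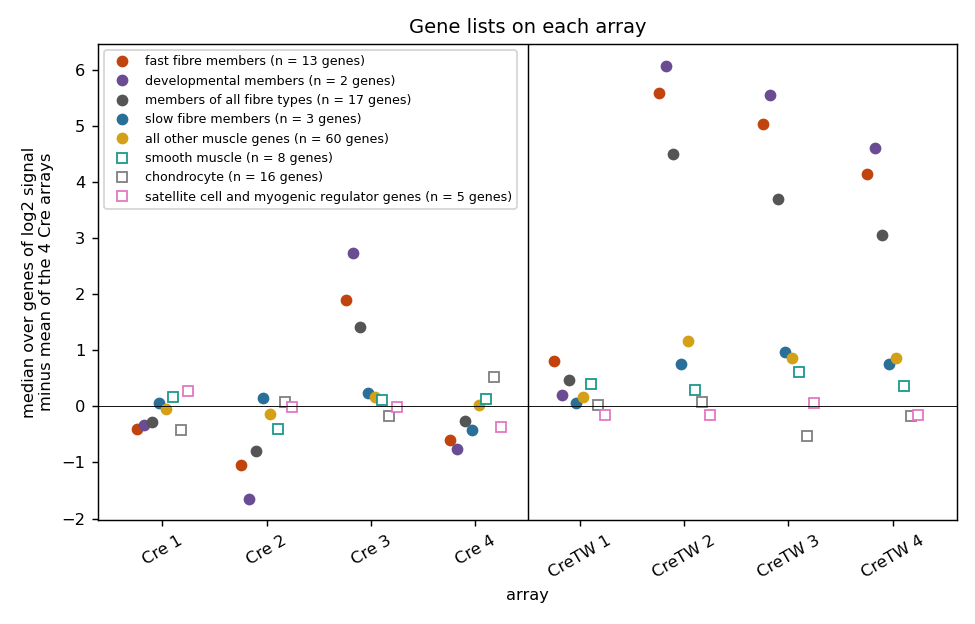
The points are the median over the genes of a list of the log2 signal minus the mean of the 4 Cre arrays, on each array, with filled circles for muscle lists and open squares for smooth muscle, chondrocyte and satellite cell lists. The fast, developmental and all-fibre lists lie between 3.06 and 6.07 on CreTW arrays 2 to 4, while the chondrocyte list lies between -0.53 and 0.52 on all arrays.

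Where a gene had several measured probes, the differences had the same sign for every gene but Tnni1, and not always the same size. Ttn gave 4.68 and 3.92, Actn2 4.41 and 3.47, and the 3 probes of Tnnt3 1.46, 1.63 and 1.66. The 2 probes of Myh4 gave 5.47 and 3.06, and the dimmer one was well above background on 4 of 8 arrays. For Pygm the difference was 0.82 at the probe used and 2.59 at the dimmer one. That dimmer probe lay at -4.57, -5.73, -3.46 and -4.13 on Cre arrays 1 to 4 and at -4.43, -0.32, -1.21 and -1.59 on CreTW arrays 1 to 4, in the common order of the muscle genes. The 2 probes of Tnni1 gave -0.015 and 0.038.

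Other muscle genes, 87 in 5 lists, had 60 measured and a median difference of 0.82. Of these, 2 passed the test and both rose (0.229% of features rose), and 37 had an unadjusted p under 0.05 with a higher value (5.93% of features). Among the other sarcomere and Z-disc genes, 1 of 22 rose, with a list median of 1.45. It was Hspb7, a small heat shock protein of heart and skeletal muscle, which lay at 1.26, 0.82, 1.23 and 1.22 on Cre arrays 1 to 4 and at 2.33, 2.45, 2.74 and 2.64 on CreTW arrays 1 to 4 (difference 1.40 ± 0.13, adjusted p = 0.00459). CreTW array 1 was close to the other CreTW arrays there, unlike in the common order. Among the other energy genes, 1 of 14 rose, with a list median of 0.72. It was Cox6a2, the muscle and heart form of a complex IV subunit, at -2.44, -3.14, -0.59 and -3.05 on Cre and 0.92, 2.98, 2.57 and 2.13 on CreTW arrays 1 to 4 (difference 4.45 ± 0.63, adjusted p = 0.0271). Its arrays followed the order of the muscle genes within each genotype, array 3 highest in Cre and array 2 highest and array 1 lowest in CreTW, but CreTW array 1 lay above Cre array 3. The call of Cox6a2 was lost without single arrays (Cre replicates 1, 2 and 4 and CreTW replicates 2, 3 and 4, highest adjusted p 0.107), where the difference was 4.18 to 4.46. It was also lost with no filter on dim probes (adjusted p = 0.124) and with the slide row as a block (0.0524). Both genes' calls were lost within single rows, where 0 of all features were called. Without CreTW replicate 1, 8 of the 60 passed (0.238% of features).

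The remaining muscle lists had no gene past the limma test. Calcium and excitation genes had 0 of 14 (10 at an unadjusted p under 0.05, median 0.66), with the brightest, Stac3, which couples the voltage sensor to the release channel, at 0.61 ± 0.21 and Cacna2d1 at 0.37 ± 0.14. Other slow and embryonic chain genes had 0 of 5 (4 at an unadjusted p under 0.05, median 0.77), with Atp2a2, the calcium pump of slow muscle and of most other cells, at 0.099 ± 0.1 and Myl4, the embryonic light chain, at 0.77 ± 0.23. Named after their values were seen, the slow heavy chain Myh7 was at 0.45 ± 0.15 and the slow light chain Myl3 at 2.91 ± 0.83 (adjusted p = 0.343 and 0.269). Of 16 satellite cell and myogenic regulator genes, 5 were measured and 0 passed (0 at an unadjusted p under 0.05). The median of -0.022 rests on these 5 alone. Their differences ran from -1.23 for Cdh15 to 0.046 ± 0.09 for Ncam1, with Mef2c at -0.098 ± 0.12. Among those not measured, Mymx and Chrna1 were well above background on 1 CreTW array each, and Mymk on 2 Cre arrays and 1 CreTW array. Pax7, the marker of muscle stem cells, Myf5 and Myf6 were well above background on 0 arrays.

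Of the genes in lists of other tissues near the growth plate, 0 passed the test by limma. At an unadjusted p under 0.05, 4 of 8 smooth muscle and 4 of 11 tendon genes had a higher value (5.93% of features), and 1 gene each of the heart, fat, nerve, endothelial and red cell lists a lower one (4.8% of features). Beside the summed signal of the 35 muscle genes, 49.5 to 122 on the Cre arrays and 65.1 to 753 on the CreTW arrays (in units of the array's 75th percentile), that of 8 of 10 smooth muscle markers was 41.8 to 50.2 on the Cre arrays and 60.2 to 71.6 on the CreTW arrays. Acta2, the smooth muscle actin, lay at 3.74, 3.03, 3.61 and 3.59 on Cre arrays 1 to 4 and at 4.74, 4.24, 4.49 and 4.40 on CreTW arrays 1 to 4, with array 1 the highest CreTW array (difference 0.97 ± 0.17, adjusted p = 0.0822). Smtn, another bright smooth muscle gene, was at 0.077 ± 0.094. The smooth muscle list shares Des with the skeletal muscle genes. Sums over a list are led by its brightest probes, such as Tnni2 among the muscle genes on the Cre arrays and Col1a1 among tendon genes, and serve to compare arrays, not lists. Heart markers were dim, with 4 of 8 measured, Nppa and Myl7 well above background on 0 arrays, and Myh6 at -0.62 ± 0.24 and Tnni3 at 0.068 ± 0.22. Tendon and connective tissue markers summed to 886 to 1111 on the Cre arrays and 1006 to 1213 on the CreTW arrays (11 of 11 measured), with Col1a1 at -0.051 ± 0.12 and Col3a1 at 0.39 ± 0.14. Yet 10 of the 11 tendon genes had differences above 0. Named after its value was seen, Thbs4, a matrix protein of tendon and muscle attachment, lay at 2.36, 1.05, 1.36 and 2.30 on Cre arrays 1 to 4 and at 2.57, 3.54, 3.74 and 3.23 on CreTW arrays 1 to 4 (difference 1.50 ± 0.36, adjusted p = 0.204). All CreTW arrays lay above all Cre arrays for Thbs4, and array 1 was the lowest of CreTW, as in 34 of 35 muscle genes. Kera, the cornea and tendon proteoglycan keratocan, had a difference of 1.15 ± 0.38. Tnmd, the tendon marker tenomodulin, had one of 0.62 ± 0.27. Both were likewise named after their values were seen. The tendon genes not yet named had smaller differences: Scx 0.24, Mkx 0.15, Fmod 0.077, Tnc 0.078, Dcn 0.35 and Postn 0.33. For Scx, CreTW array 1 was the highest of all 8 arrays. In the list, 3 of 11 genes had all CreTW arrays above all Cre arrays (3.89% of features), and the median difference was 0.33.

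Bone, fat, nerve, vessel and blood lists varied between arrays without a call. Osteoclast markers (6 of 7 measured) summed to 417 to 1168 on the Cre arrays and 274 to 1016 on the CreTW arrays, lowest on CreTW array 2, with Acp5 at -0.81 ± 0.47 and Ctsk at -0.62 ± 0.41. Osteoblast markers (7 of 7) summed to 576 to 739 on the Cre arrays and 565 to 723 on the CreTW arrays, with Alpl at -0.15 ± 0.13, and chondrocyte markers (16 of 16) to 2768 to 4712 on the Cre arrays and 2784 to 3625 on the CreTW arrays, with Acan at 0.0084 ± 0.14. Fat markers (4 of 9) summed to 5.85 to 15.7 on the Cre arrays and 7.51 to 10.7 on the CreTW arrays, highest on Cre array 3, with Fabp4 at 0.028 ± 0.33, Lep at 0.031 ± 0.096 and Retn and Ucp1 well above background on 0 arrays. Nerve and Schwann cell markers (7 of 8) had Ncmap at -0.15 ± 0.30 and Pmp22 at 0.35 ± 0.22, and endothelial markers (7 of 7) had Kdr at -0.028 ± 0.21 and Emcn at -0.27 ± 0.20. Red cell markers (4 of 7) had a median of -0.63, with Hbb-bt at -0.64 ± 0.27 and Hba-a1 at -0.62 ± 0.29. The part of these lists in the muscle gene values was not tested.

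All arrays were on 1 slide, whose 2 rows each held both genotypes with 2 arrays apiece. The median difference of the 35 genes was 2.73 within row 1 and 3.05 within row 2. By limma, 0 were called within either row (9 and 32 genes with an unadjusted p under 0.05). Of all 23105 features, 0 were called within either row too (3164 and 1216 with an unadjusted p under 0.05). The 0 therefore does not set these genes apart. Row 1 held Cre arrays 1 and 2 and CreTW arrays 1 and 2, and so the lowest CreTW array and the highest. Within row 2 CreTW arrays 3 and 4 stood against Cre arrays 3 and 4.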

How the data were processed

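Total RNA of growth plate cartilage was hybridised to 1-colour (Cy3) Agilent 8x60K arrays, per the labels. The deposited spot intensity comes from Agilent Feature Extraction 11.5.1.1, background-subtracted, per the file headers. GeneSpring 14.9 is named in the labels. In the authors' deposited log2 table, each array's values differ from log2 processed intensity by 1 constant.

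Non-control spots of a probe were averaged without outlier spots (unless all were outliers), taken to log2 and scaled by the array's 75th percentile. Probes were named through RefSeq transcripts of GRCm38.p6 (names only); 32994 of 56605 had 1 symbol, 0 several and 23611 none. Kept were probes that at least 4 arrays put above background, and the brightest stood for a gene, which left 23105 features. Genotypes were compared with limma 3.58.1 in R 4.3.3 with Benjamini-Hochberg adjustment at 0.05. The method was tested on simulated data whose features were drawn independently, so genes that vary together were not covered. The members, lists and order of arrays were chosen with earlier results of these data known. No list was tested as a set. Named beyond the muscle genes were, from each other list, the genes past the test, or the 2 brightest. All tendon genes and some genes chosen after their values were seen were also named. A planned comparison of troponin proteins was not run, as no protein sequences were used here. Normexp was run on the median signal, as the mean signal was not used here. Other alternatives were scaling, filters, the choice of probe, blocks, weights and leaving out each array.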

Additional observations from a re-analysis of the deposited data

Results flagged for a closer look

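In 6 of 74 groups of 4 arrays checked (the 35 muscle genes, Cox6a2 and Hspb7 in each genotype), 1 array stood far from the other 3, with a gap over the range above Dixon's 95% critical value. Chance flags about 1 group in 20, and genes that vary together are not independent checks. Cre array 3 was such a highest array for Myh2 (-2.18, next -5.18), Mb (-2.05, next -5.03) and Cacna1s (-0.79, next -2.65). For Myh2 and Mb only 1 Cre array was well above background, so the gap there sets it against arrays at background. For Des, CreTW array 1 was the low one (-2.21, next -0.49). For Tpm2, CreTW array 3 was the high one (3.61, next 3.36), and for Hspb7, Cre array 2 was the low one (0.82, next 1.22).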

How the results depend on the processing

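In the 21 or 22 alternatives run for each gene (of 23), 33 of 35 genes kept their direction. Tnni1 turned positive with normexp (0.0030), with the mean of its probes (0.011) and within slide row 2 (0.057), and lay between -0.11 and 0.042 without single arrays. Tnni2 lay between -0.0052 and 0.63 without single arrays, turning negative without Cre replicate 1 and without CreTW replicate 2. In place of 0 muscle genes, 1 was called with normexp (Des), 1 with the replicate block (Ldb3, beside 0.039% of features), 2 with eBayes trend and robust (Des and Tpm2) and 0 to 8 without single arrays. The other muscle genes called were 2, but 1 unfiltered, 0 with the replicate block (35 at an unadjusted p under 0.05), 1 with the slide row as a block, 0 within each slide row (21 and 35 at an unadjusted p under 0.05) and 1 to 8 without single arrays. All features called were 80, but 27 unfiltered, 12 with the replicate block, 53 with the row block, 127 with array weights, 0 within each row (3164 and 1216 at an unadjusted p under 0.05) and 42 to 75 without single arrays. With normexp, which also used another signal (the median), the median difference was 1.43 over all muscle genes, 1.89 over fast genes and 1.15 over genes of all fibre types. The slow gene median was 0.19 within row 1 and 0.95 within row 2. The causes of these changes were not tested. The replicate block also ended the calls of Cox6a2 (adjusted p = 0.109) and Hspb7 (0.0578). Nothing in the labels says that the replicate numbers pair the samples. Same-numbered arrays had correlations of -0.012, -0.10, 0.31 and -0.030 between their deviations. Differently numbered arrays were not compared in this way, so these values cannot decide whether the numbers pair mice. Dim signals limit the folds of the 18 genes below background on some arrays, and raising those arrays to the lowest signal well above background gave a median of 2.36.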

Other observations

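Some genes of the contractile apparatus did not have CreTW array 1 as the lowest CreTW array, and they were chosen after their values were seen. Actc1, the actin of heart and of developing skeletal muscle, lay at -0.32, -0.68, -0.23 and -0.46 on Cre arrays 1 to 4 and at 0.78, 1.77, 1.15 and 0.62 on CreTW arrays 1 to 4 (difference 1.50 ± 0.24, adjusted p = 0.0524 by limma). Fhl1, a LIM protein of muscle and other tissues, lay at 3.64, 2.99, 3.20 and 3.82 on the Cre arrays and at 4.27, 4.30, 4.17 and 4.36 on the CreTW arrays (difference 0.86 ± 0.18, adjusted p = 0.146). Neither passed the test. In the opposite direction, Adipoq, the fat cell hormone adiponectin, was well above background on 3 Cre arrays and 1 CreTW array (difference -1.90 ± 0.83, adjusted p = 0.465). Cdh15, a cadherin of satellite cells, lay at 1.0, 1.35, 0.55 and -0.47 on the Cre arrays and at -1.47, -0.93, 0.84 and -0.93 on the CreTW arrays, with overlapping groups (difference -1.23 ± 0.54, adjusted p = 0.468).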
